A study of Mus musculus with 6 samples.

Results

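The genes of fatty acid metabolism were followed in leukemia stem cells (LSCs) with intact and with conditionally deleted *Piezo1*, the gene of a mechanically gated cation channel. They were chosen by name from the deposited expression table: 39 genes of fatty acid synthesis and elongation, of mitochondrial and peroxisomal oxidation, of the lipid droplet and of the PPAR factors, out of 55367 genes listed. Of the 39, 38 had reads and passed the filter on low values, and *Ppara* had none. RNA was sequenced from 3 WT and 3 Piezo1cko LSC libraries, made with oligo-dT priming and a Smart-seq2 based protocol from bone marrow of mice with acute myeloid leukemia (AML).

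The Piezo1cko mice were Mx1-cre; Piezo1 fl/fl and the WT mice were Piezo1 fl/fl littermates without the Cre, so the floxed alleles and the pIpC injections that switch on Mx1-cre were common to both groups. The mice were 8 to 10 weeks old, on a C57BL/6J background. Mx1-cre answers to interferon and acts in blood cells and in other tissues, but only marrow cells were taken on here: lineage-negative cells were infected with a retrovirus carrying the fusion oncogene MLL-AF9 and YFP, and grew into leukemia in irradiated recipients. LSCs were sorted as YFP+ cells that lack lineage markers and Sca-1, carry c-Kit and CD34 and are high in CD16/32. The labels do not say whether the 3 libraries of a group came from separate mice, so p-values measure the spread between these libraries, which may be technical.

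Fatty acids are built in the cytosol from citrate. ATP citrate lyase splits citrate into acetyl-CoA, acetyl-CoA carboxylase makes malonyl-CoA from it, and fatty acid synthase joins these units into palmitate, which the ELOVL enzymes lengthen in the endoplasmic reticulum. To be burned, a long-chain fatty acid enters the mitochondrion through the carnitine shuttle, which malonyl-CoA inhibits at its first enzyme, and is then shortened in rounds of dehydrogenation, hydration, a second oxidation and thiolysis. Fatty acids that are not burned are stored as triacylglycerol in lipid droplets, and the PPAR nuclear receptors switch on many genes of uptake, oxidation and storage. Fatty acid oxidation is known as a fuel of AML cells, their stem cells included.

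The main test used the deposited values, which are log2 values with the form of a regularized log: they allow for library size, and each is drawn in towards its gene's mean. Differences shrink by this, and shrink furthest where reads are few. Whole reads were therefore recovered from the same values, 14112094 to 15483585 per library, and levels are given below as normalized reads, that is recovered reads divided by the library's size factor. *Piezo1* itself had 92.8 to 109 normalized reads in WT and 36.6 to 56.5 in Piezo1cko libraries, so 45.9% of the WT level remained. It fell by 0.29 on the deposited log2 scale (SE 0.04, adjusted p = 5.8e-06, limma with Benjamini-Hochberg adjustment). Markers of the LSC gate had many reads in both groups, with *Kit* at 2522 and 3425 and *Cd34* at 3721 and 5796 normalized reads in WT and Piezo1cko libraries, but not in one direction: of the CD16/32 genes, *Fcgr3* was at 5405 and 5323 and *Fcgr2b* at 3468 and 1667. Of the markers the gate leaves out, *Cd8a* had no reads, *Ly6a*, the gene of Sca-1, had 0.66 and 11.4 and *Itgam* had 99.5 and 201. Some marker lists of other blood cells differed between the groups: the summed normalized reads of 7 neutrophil markers ran from 1149 to 1201 in WT and from 117 to 133 in Piezo1cko libraries, and those of 6 mast cell and basophil markers from 4216 to 4424 and from 12173 to 12267. B cell markers summed to 12202 to 12561 in WT and 22313 to 22712 in Piezo1cko libraries, most of them from *Ighm*, monocyte and dendritic markers to 8163 to 8485 and 9576 to 9997, and macrophage markers to 911 to 989 and 928 to 1053. The sums were 111 to 119 and 30.5 to 43.9 for erythroid markers, and 0 to 1.01 and 43.9 to 60.0 for NK cell markers. They were 7.70 to 15.5 and 13.2 to 17.8 for T cell markers, and 2895 to 2942 and 3439 to 3692 for stroma and endothelium. The last sum was nearly all *Pecam1*, with means of 2892 and 3498. *Cxcl12* was at 15.5 and 29.8, while *Col1a1*, *Lepr*, *Cdh5* and *Kdr* had few reads and were lower in Piezo1cko libraries. Most NK cell reads came from *Klrb1c*, at 0 and 41.1, while *Prf1* went from 0.323 to 0. Of the T cell markers, *Trac* went from 2.93 to 15.5, and *Cd3d* (5.23 to 0.65), *Cd3g* (2.28 to 0), *Cd3e* and *Cd4* went the other way. Fat cells express many genes of these pathways strongly. Their 7 markers summed to 9.08 to 11.5 reads in WT and 6.27 to 11.7 in Piezo1cko libraries, with *Adipoq* and *Plin1* at no reads. The part of the blood cell lists in the results that follow was not tested, and in bulk RNA fewer cells of a type and less RNA per cell cannot be told apart.

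Fatty acid genes with reads moved in both directions, and all but *Pparg*, which went from 120 raw reads in WT to 1 in Piezo1cko libraries, changed by less than 1 on the log2 scale of the recovered reads. Of the 38 tested, 15 were higher and 11 lower in Piezo1cko LSCs, and 12 were not called at the adjusted p of 0.05 set for a call. Among the 16746 genes of the whole fit, 63.0% were called, 31.6% higher and 31.4% lower, so the members' share lay near that of the table as a whole. The groups did not overlap for 27 of the 38 members, against 66.6% of all genes. On the deposited scale, which shrinks differences, the members' median log2 fold change was 0.05, with a range from -0.48 for *Dgat2* to 0.42 for *Cpt1a*, and the median over all genes was 0.00. At the study's thresholds, which add an absolute log2 fold change over 1, no member was called on the deposited values (0.818% of all genes were, 0.257% higher and 0.561% lower). On recovered reads, fitted with limma-voom, 1 member was called at these thresholds, *Pparg*, against 24.9% of the 17352 genes tested, 12.7% higher and 12.2% lower. With means from 50 normalized reads upwards, 0 of 36 members were past them, against 8.82% of 10246 genes, 4.01% higher and 4.81% lower. Without the fold threshold, limma-voom called 15 members higher and 11 lower on the reads, where 62.9% of all genes were called.

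The calls were then counted by role. Of 8 synthesis and elongation genes, 5 fell and 2 rose (median log2 fold change -0.13). All 3 genes of mitochondrial entry rose (median 0.28). Over the 18 mitochondrial genes from entry to electron transfer, 10 rose, 2 fell and 6 were not called (median 0.10). Of 8 droplet genes, 3 rose and 2 fell (median 0.05). Over all genes, 31.6% were called higher and 31.4% lower, and the droplet counts lay near those shares. No role was tested against these shares. The summed normalized reads of the synthesis genes were 10061 ± 93.2 (SD, n = 3) in WT and 8475 ± 146 in Piezo1cko libraries, 84.2% of the WT level. For mitochondrial entry the sums were 1316 ± 23.9 and 1791 ± 32.3, 136% of WT, and the groups did not overlap for either. Over all 38 members the sums were nearly level, 39626 ± 20.9 against 40963 ± 263, or 103% of WT. These sums are led by the members with most reads, and the direction of a list was not tested against other lists.

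**Figure D1:**
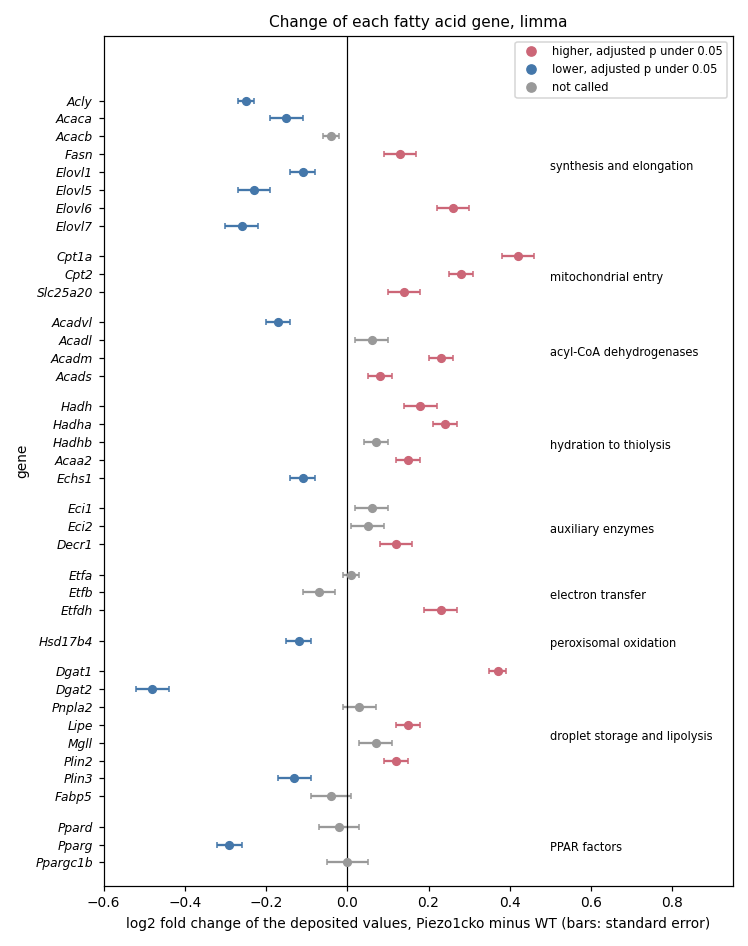
Log2 fold change of the deposited values (x axis, Piezo1cko minus WT, bars are standard errors from limma, 3 libraries per group) for the 38 members with reads (y axis), grouped by role and coloured by call. All 3 mitochondrial entry genes lie to the right of 0, 5 of 8 synthesis genes are called to its left, and *Dgat1* at 0.37 and *Dgat2* at -0.48 lie far apart.

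The promoters of 5 genes are printed because they belong to the oxidation genes that rose: the 3 entry genes *Cpt1a*, *Cpt2* and *Slc25a20*, which rose together, *Hadha*, which faces its partner subunit gene head to head, and *Acadm*, whose window holds a motif match. Each is 300 bases, from 250 before to 50 after the RefSeq transcript start, on the gene's own strand, build GRCm38.p6: chr19:3323051-3323350 on the plus strand for *Cpt1a*, chr4:107923540-107923839 on the minus strand for *Cpt2*, chr9:108661886-108662185 on the plus strand for *Slc25a20*, chr5:30154931-30155230 on the minus strand for *Hadha* and chr3:153944594-153944893 on the minus strand for *Acadm*. Capitals mark a match to a motif searched.
Cpt1a: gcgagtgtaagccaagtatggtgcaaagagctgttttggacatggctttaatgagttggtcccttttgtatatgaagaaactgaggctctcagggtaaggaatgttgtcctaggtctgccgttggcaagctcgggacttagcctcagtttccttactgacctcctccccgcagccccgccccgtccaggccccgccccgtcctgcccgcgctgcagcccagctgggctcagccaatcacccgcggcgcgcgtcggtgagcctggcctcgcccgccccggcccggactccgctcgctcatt
Cpt2: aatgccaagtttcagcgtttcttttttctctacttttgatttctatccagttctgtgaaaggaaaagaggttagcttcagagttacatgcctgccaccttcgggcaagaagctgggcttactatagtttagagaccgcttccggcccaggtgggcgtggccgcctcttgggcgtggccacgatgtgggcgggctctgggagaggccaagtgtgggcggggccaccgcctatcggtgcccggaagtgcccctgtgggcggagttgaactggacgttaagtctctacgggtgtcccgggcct
Slc25a20: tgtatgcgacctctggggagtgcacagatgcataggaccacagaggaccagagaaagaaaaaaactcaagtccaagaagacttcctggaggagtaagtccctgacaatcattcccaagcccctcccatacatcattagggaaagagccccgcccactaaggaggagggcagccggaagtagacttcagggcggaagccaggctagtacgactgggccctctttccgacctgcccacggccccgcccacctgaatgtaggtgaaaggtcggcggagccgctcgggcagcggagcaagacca
Hadha: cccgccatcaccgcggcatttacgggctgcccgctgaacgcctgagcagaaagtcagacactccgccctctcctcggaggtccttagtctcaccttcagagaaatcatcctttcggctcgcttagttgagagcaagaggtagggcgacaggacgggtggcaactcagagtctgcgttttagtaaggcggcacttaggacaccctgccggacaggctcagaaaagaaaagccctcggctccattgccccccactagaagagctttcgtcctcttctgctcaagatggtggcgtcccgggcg
Acadm: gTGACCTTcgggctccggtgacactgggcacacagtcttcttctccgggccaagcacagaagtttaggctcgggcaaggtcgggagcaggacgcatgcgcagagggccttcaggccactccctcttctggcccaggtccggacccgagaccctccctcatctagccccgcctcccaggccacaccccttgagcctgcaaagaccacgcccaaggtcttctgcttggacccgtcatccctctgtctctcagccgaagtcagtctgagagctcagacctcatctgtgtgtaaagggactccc

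In these 5 windows the searched letters occurred only in *Acadm*, as AAGGTCA on the opposite strand, the core of the element bound by estrogen-related receptors. The window of *Hadha* shared 228 bases with that of *Hadhb*. Windows were at hand for 32 of the 39 members, 37 in all, and were searched on both strands for 5 motifs that can overlap each other. AAGGTCA occurred in 2 of the 37 windows (*Acacb* and *Acadm*) and in 4.72% of all 32851 windows of that length. The sterol regulatory element TCACNCCAC, through which SREBP factors act on lipid synthesis genes, occurred in none of the members' windows and in 1.24% of all. The direct repeat with 1 spacer bound by PPAR with RXR occurred in 1 window (*Elovl1*) and in 0.381% of all, and TGATGNAAT, an element of C/EBP and ATF factors, in 1 (*Echs1*) and in 0.965%. ACGTG, a core of the hypoxia response element, occurred in 10 of the 37 windows, 27% against 19.6% of all. These windows were of *Acacb*, *Acadvl*, *Acly*, *Elovl5*, *Elovl6*, *Lipe*, *Mgll*, *Plin2* and *Ppard*. The study names GCGTR, where R is A or G, as the HIF1A motif in the promoters it examined. GCGTR was not searched here, so lower case in the printed windows does not mean that it is absent. A match is a description of these letters, and no match says only that they are not in these windows.

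Synthesis was led by *Acly*, the gene of ATP citrate lyase. Normalized reads of *Acly* were 5388, 5498 and 5338 in WT replicates 1 to 3 and 4323, 4254 and 4237 in Piezo1cko replicates 1 to 3. Every Piezo1cko library lay below every WT library, and the gene fell by 0.25 on the deposited log2 scale (SE 0.02, adjusted p = 2.97e-08). *Acaca*, the cytosolic acetyl-CoA carboxylase, fell as well, from 106 ± 2.48 to 74.4 ± 6.75 normalized reads (SD, n = 3; log2 fold change -0.15, SE 0.04, adjusted p = 0.00179). Its mitochondrial-membrane counterpart *Acacb* was close to absent, at 10.2 ± 4.38 and 5.39 ± 2.92 reads, and was not called (adjusted p = 0.126). *Fasn*, fatty acid synthase, moved the other way. It had 368, 441 and 381 normalized reads in WT and 446, 475 and 474 in Piezo1cko libraries, with no overlap but with WT replicate 2 just below the lowest Piezo1cko library, and rose by 0.13 (SE 0.04, adjusted p = 0.0086). Without WT replicate 1 the adjusted p of *Fasn* was 0.0598, and without WT replicate 3 it was 0.0531, so its call rested on those libraries.

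The elongases, which add carbon units to chains that already exist, split by family member. *Elovl6* extends palmitate to stearate. Normalized reads of *Elovl6* were 214, 236 and 221 in WT and 304, 334 and 324 in Piezo1cko libraries, well apart (log2 fold change 0.26, SE 0.04, adjusted p = 1.11e-05). *Elovl7*, an elongase of saturated chains, went from 278, 274 and 261 to 189, 181 and 185 normalized reads and fell by 0.26 (SE 0.04, adjusted p = 7.77e-06). *Elovl5*, which extends polyunsaturated chains, had 1021, 900.2 and 1085 reads in WT and 848, 734 and 755 in Piezo1cko libraries (log2 fold change -0.23, SE 0.04, adjusted p = 0.000152). Both sets of libraries were separate for these 3 genes, most narrowly for *Elovl5*, where WT replicate 2 was close to Piezo1cko replicate 1. *Elovl1*, which makes very long saturated chains for sphingolipids, was the most expressed of the 4 and fell from 2643 ± 77.3 to 2374 ± 83.3 reads (log2 fold change -0.11, SE 0.03, adjusted p = 0.00259). The exons of *Elovl1* overlap those of *Cdc20* on the other strand, which had a mean of 2312 normalized reads and was not called, and the library protocol does not mark strand, so reads in the overlap cannot be told apart. On reads scaled to transcript length and library total (RPKM), the ratio of *Elovl7* to *Elovl6* went from 1.80 ± 0.107 in WT to 0.858 ± 0.0597 in Piezo1cko libraries (SD, n = 3), so the order of these levels turned over in all 3 libraries of the group. The ratio of *Elovl5* to *Elovl6* went from 9.61 ± 1.27 to 5.22 ± 0.666, and *Elovl1* made up 75.8% ± 1.06 and 77.5% ± 0.753 of the summed elongase level. These ratios were chosen after the values were seen and are given without a test.

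The 3 carnitine shuttle genes among the members rose, while of 4 further entry genes 0 rose and 1 fell: *Crat*, a carnitine acetyltransferase, went from 436 to 349 normalized reads (log2 fold change -0.18, adjusted p = 0.000266), and *Cpt1b*, *Cpt1c* and *Slc22a5* were not called. *Cpt1a*, on chromosome 19 from 3322334 to 3385733, encodes the carnitine palmitoyltransferase of the outer membrane, the step that malonyl-CoA inhibits. Normalized reads of *Cpt1a* were 167, 166 and 178 in WT replicates 1 to 3 and 313, 295 and 339 in Piezo1cko replicates 1 to 3. No Piezo1cko library came near a WT library, and the level was 186% of WT (log2 fold change 0.42 on the deposited values and 0.89 on reads, SE 0.04 and 0.09, adjusted p = 2.79e-08 and 5.5e-07, limma and limma-voom). *Cpt2*, its partner on the inner membrane, had 693, 689 and 678 reads in WT and 926, 965 and 904 in Piezo1cko libraries (log2 fold change 0.28, SE 0.03, adjusted p = 5.96e-07). *Slc25a20*, the carrier that swaps acylcarnitine for carnitine across the inner membrane, had 463, 435 and 480.1 reads in WT and 567, 493 and 569.8 in Piezo1cko libraries (log2 fold change 0.14, SE 0.04, adjusted p = 0.00481). The rise was largest for *Cpt1a* and smallest for *Slc25a20*, whose Piezo1cko replicate 2 lay close to WT replicate 3. On the per-length scale, the level of *Cpt1a* over that of *Acaca* was 3.55 ± 0.101 in WT and 9.42 ± 1.14 in Piezo1cko libraries, a ratio chosen after the values were seen.

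**Figure D2:**
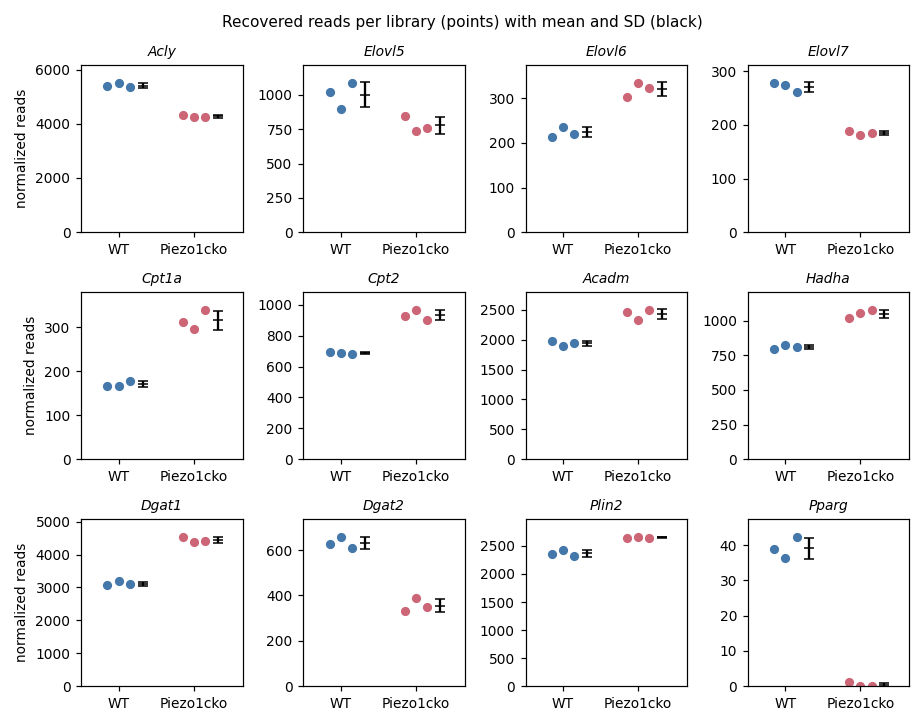
Normalized recovered reads (y axes, each starting at 0) of 12 members in each of the 3 WT and 3 Piezo1cko libraries (points), with the mean and SD of each group in black. The groups do not overlap in any panel, *Cpt1a* goes from 166 to 178 reads in WT to 295 to 339 in Piezo1cko libraries, and *Pparg* has 1 read in the 3 Piezo1cko libraries together.

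The acyl-CoA dehydrogenases, each of which takes chains of a certain length, did not move together. *Acadm*, for medium chains, had 1987, 1898 and 1944 normalized reads in WT and 2461, 2337 and 2497 in Piezo1cko libraries and rose by 0.23 (SE 0.03, adjusted p = 1.77e-06). *Acadvl*, for very long chains, had 809, 801 and 807 reads in WT and 663, 691 and 651 in Piezo1cko libraries and fell by 0.17 on the log2 scale (SE 0.03, adjusted p = 0.000181). The groups were clearly apart for both, in opposite directions. *Acadvl* shares exon sequence with *Dvl2* on the other strand, which had a mean of 449.9 reads and was not called. *Acads*, for short chains, had 949, 983 and 973 reads in WT and 1030, 1049 and 1096 in Piezo1cko libraries (log2 fold change 0.08, SE 0.03, adjusted p = 0.0262). That small rise was no longer called without WT replicate 1 (adjusted p = 0.0735), WT replicate 3 (0.056) or Piezo1cko replicate 3 (0.108). *Acadl*, for long chains, had 589 ± 29.9 and 628 ± 52.6 reads and was not called (adjusted p = 0.241, overlapping groups), though it was called without Piezo1cko replicate 3 (adjusted p = 0.0466).

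Of the 5 members from hydration to thiolysis, 3 rose, 1 fell and 1 was not called. Of 5 further genes listed with them, 2 rose (*Acot2* and *Acot13*) and 3 fell (*Hsd17b10*, *Acat1* and *Acot9*). The *Acot* genes encode thioesterases, which free fatty acids from CoA and carry out none of these steps. *Hadha* and *Hadhb* encode the subunits of the trifunctional protein, which handles long chains at the inner membrane. Normalized reads of *Hadha* were 797, 826 and 812 in WT and 1017, 1056 and 1075 in Piezo1cko libraries, without overlap (log2 fold change 0.24, SE 0.03, adjusted p = 2.86e-06). *Hadhb* had 1216, 1216 and 1212 reads in WT and 1292, 1257 and 1358 in Piezo1cko libraries, again without overlap, and missed the call (log2 fold change 0.07, SE 0.03, adjusted p = 0.0636). Close to the threshold, *Hadhb* passed it under 7 of the alternatives run, with adjusted p from 0.0176 to 0.0484. The level of *Hadha* over that of *Hadhb* per length was 0.341 ± 0.00608 in WT and 0.411 ± 0.0148 in Piezo1cko libraries. *Hadh*, the dehydrogenase for shorter chains in the matrix, had 469, 452 and 479 reads in WT and 588, 545 and 603 in Piezo1cko libraries (log2 fold change 0.18, SE 0.04, adjusted p = 0.000238). *Acaa2*, the matrix thiolase, had 1938, 1971 and 2003 reads in WT and 2272, 2293 and 2271 in Piezo1cko libraries (log2 fold change 0.15, SE 0.03, adjusted p = 0.000115). The groups stood apart in each of these genes. *Echs1*, the short-chain enoyl-CoA hydratase, fell: it had 2109, 2066 and 2125 reads in WT and 1947, 1808 and 1920.1 in Piezo1cko libraries (log2 fold change -0.11, SE 0.03, adjusted p = 0.00394). Its exons overlap those of *Paox* on the other strand, which had a mean of 1126 reads and was itself called higher (log2 fold change 0.10, adjusted p = 0.00634).

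Unsaturated chains need auxiliary enzymes that move or reduce their double bonds. *Decr1*, the dienoyl-CoA reductase, had 329.9, 389 and 319 reads in WT and 425, 399 and 378 in Piezo1cko libraries and was called higher (log2 fold change 0.12, SE 0.04, adjusted p = 0.0237). WT replicate 2 lay above Piezo1cko replicate 3, so the groups overlapped, and the call was lost without WT replicate 1 (adjusted p = 0.104), WT replicate 3 (0.14), Piezo1cko replicate 1 (0.104) or Piezo1cko replicate 2 (0.0646). The isomerases *Eci1* (752 ± 27.5 and 801 ± 73.2 reads) and *Eci2* (370.4 ± 26.7 and 396 ± 23.0) were not called (adjusted p = 0.226 and 0.248), but *Eci1* was without Piezo1cko replicate 1 (adjusted p = 0.0389). Electrons of the dehydrogenases pass over the flavoprotein subunits *Etfa* and *Etfb* to *Etfdh*, which hands them to ubiquinone. *Etfdh* had 818, 758 and 846 reads in WT and 1078, 1000.1 and 1005 in Piezo1cko libraries, with a wide gap, and rose by 0.23 (SE 0.04, adjusted p = 2.16e-05). Its exons overlap the antisense gene *4930579G24Rik*, with a mean of 653 reads and a log2 fold change of -0.08 (adjusted p = 0.0427). *Etfa* had 4141 ± 49.8 and 4188 ± 91.5 reads and was not called (log2 fold change 0.01, adjusted p = 0.693), nor was *Etfb*, at 986 ± 52.3 and 916 ± 52.3 (-0.07, 0.102). Without WT replicate 3 or Piezo1cko replicate 2, *Etfb* was called lower (adjusted p = 0.0472 and 0.0441). The acceptor *Etfdh* thus rose while neither donor subunit was called.

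The peroxisome shortens chains that are too long or branched for the mitochondrion. *Hsd17b4*, its bifunctional hydratase and dehydrogenase, had 996, 895 and 915 reads in WT and 852, 810 and 814 in Piezo1cko libraries, without overlap, and fell by 0.12 on the log2 scale (SE 0.03, adjusted p = 0.00713).

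**Figure D3:**
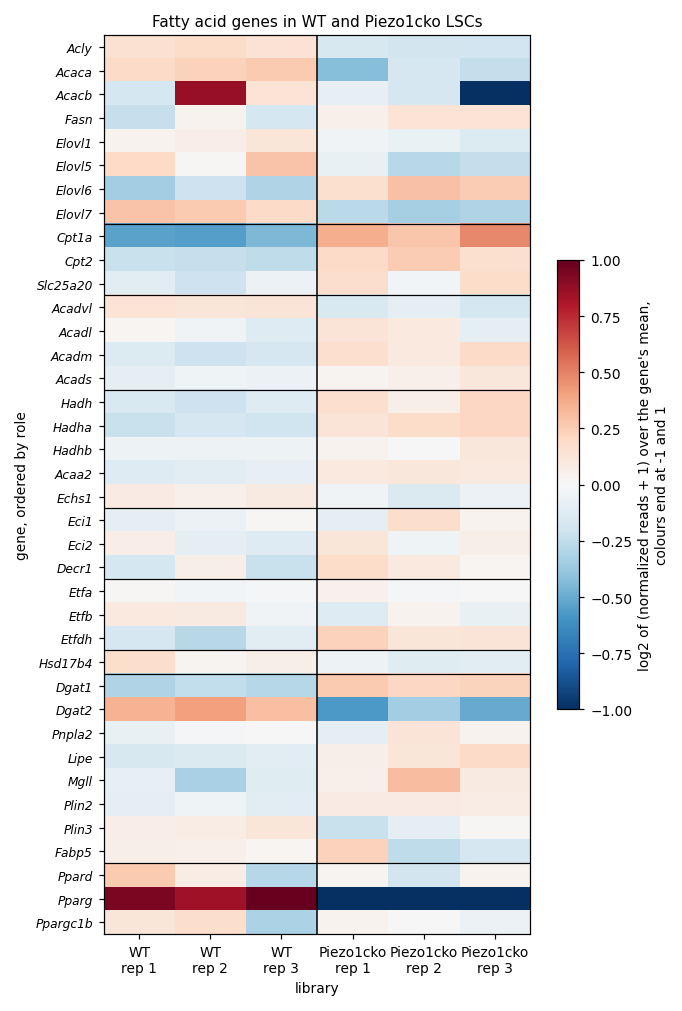
The 38 members with reads (rows, ordered by role with lines between roles) in each of the 6 libraries (columns), coloured by log2 of normalized reads plus 1 over the gene's mean, with colours ending at -1 and 1. Columns of a group look alike in *Cpt1a*, *Dgat1* and *Dgat2*, *Acacb* at 2.04 to 15.1 reads varies within both groups, and *Pparg* reaches the end of the scale in all 3 Piezo1cko libraries.

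In the lipid droplet genes, both enzymes of the last step of triacylglycerol synthesis changed, in opposite directions. *Dgat1* (chromosome 15, 76502015 to 76511953, minus strand) and *Dgat2* (chromosome 7, 99153658 to 99182719, minus strand) encode enzymes of unrelated structure that both join the last fatty acid to diacylglycerol. Normalized reads of *Dgat1* were 3072, 3185 and 3099.8 in WT and 4532, 4375 and 4420.2 in Piezo1cko libraries (log2 fold change 0.37, SE 0.02, adjusted p = 3.36e-10). For *Dgat2* they were 628, 657 and 608 in WT and 330.1, 388 and 348 in Piezo1cko libraries, 56.3% of the WT level (log2 fold change -0.48, SE 0.04, adjusted p = 4.6e-09). Neither gene had a library of one group near the other group. Per length, the ratio of *Dgat1* to *Dgat2* was 5.86, 5.81 and 6.11 in WT and 16.4, 13.5 and 15.2 in Piezo1cko libraries, a mean of 5.93 ± 0.16 against 15.1 ± 1.48. The pair was singled out after its values were seen.

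Of the coat proteins, *Plin2* had 2350.1, 2431 and 2320.5 reads in WT and 2650.3, 2658 and 2646 in Piezo1cko libraries (log2 fold change 0.12, SE 0.03, adjusted p = 0.000903). *Plin3* had 1479.7, 1489 and 1536 reads in WT and 1209.7, 1327 and 1423 in Piezo1cko libraries (log2 fold change -0.13, SE 0.04, adjusted p = 0.00459). The Piezo1cko libraries were tight for *Plin2* and spread for *Plin3*, and neither gene's groups overlapped. Lipolysis takes triacylglycerol apart by the lipases *Pnpla2*, *Lipe* and *Mgll* in turn. *Lipe*, hormone-sensitive lipase, had 441, 446 and 456 reads in WT and 514, 535 and 563 in Piezo1cko libraries and rose by 0.15 (SE 0.03, adjusted p = 0.000972). The antisense gene *4732471J01Rik* overlaps its exons, with a mean of 58.5 reads and a log2 fold change of 0.18 (adjusted p = 0.000838). *Pnpla2*, at 480.3 ± 13.9 and 499 ± 39.9 reads, and *Mgll*, at 47.3 ± 4.31 and 59.5 ± 5.89, were not called (adjusted p = 0.496 and 0.0953), and the groups of *Mgll* did not overlap. *Fabp5*, a carrier of fatty acids in the cytosol with close pseudogene copies that could share its reads, had 148, 147 and 144 reads in WT and 167, 119 and 126 in Piezo1cko libraries (adjusted p = 0.46). Piezo1cko replicate 1 alone was above WT, and without it *Fabp5* was called lower (log2 fold change -0.10, adjusted p = 0.0472).

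Of the nuclear receptors, *Pparg* fell to almost no reads. *Pparg*, on chromosome 6 from 115360951 to 115490399, encodes the receptor known for driving fat storage genes. Normalized reads of *Pparg* were 38.8, 36.3 and 42.3 in WT and 1.04, 0 and 0 in Piezo1cko libraries, that is 120 raw reads in WT against 1 in Piezo1cko libraries. The level in WT over that in Piezo1cko libraries was 116, with an exact 95% interval of 20.5 to 4630.4 that covers counting error only. The deposited values shrink this to a log2 fold change of -0.29 (SE 0.03, adjusted p = 2.03e-08), while limma-voom on reads gave -5.76 (SE 0.58, adjusted p = 5.51e-07). With a floor of 5 on the mean deposited value *Pparg* was not tested. *Ppard* was not called, with 137, 120.1 and 93.3 reads in WT and 116, 100.4 and 117 in Piezo1cko libraries (adjusted p = 0.697), nor was the coactivator *Ppargc1b*, with 156, 162 and 115 and with 147, 143 and 138 reads (adjusted p = 0.957). Those groups overlapped. *Ppara*, the receptor that drives oxidation in liver, had 0 reads in every library, which allows up to 3 reads per library.

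**Figure D4:**
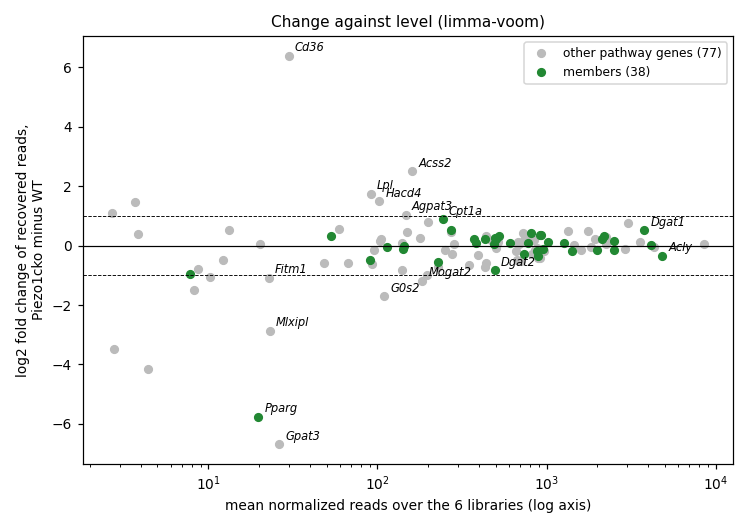
Log2 fold change of recovered reads (y axis, Piezo1cko minus WT, limma-voom, dashed lines at -1 and 1) against the mean normalized reads of the 6 libraries (x axis, log scale) for the 38 members (green) and 77 other genes of the pathway (grey). All members but *Pparg* lie between the dashed lines, and the changes outside them are in genes with under 200 reads on average.

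Levels between genes were compared as recovered reads divided by the length of the principal transcript and by the library total (RPKM). In WT LSCs *Etfa* was highest, at 199.5 ± 1.94 (SD, n = 3), ahead of *Dgat1* at 111 ± 2.32, *Elovl1* at 97.9 ± 3.0, *Echs1* at 90.5 ± 1.24 and *Acaa2* at 87.2 ± 1.60. *Plin2* at 84.1 ± 2.14 and *Acly* at 82.6 ± 1.34 followed, and did not differ from each other beyond their spread. The levels of *Elovl1* and *Echs1* may hold reads of the genes that overlap their exons on the other strand. At the other end of the members with reads, *Acacb* was at 0.0779 ± 0.0336, *Acaca* at 0.744 ± 0.0190, *Mgll* at 0.82 ± 0.0734 and *Pparg* at 1.49 ± 0.114. Next came *Ppard* at 2.39 ± 0.445, *Elovl6* at 2.52 ± 0.130, *Cpt1a* at 2.64 ± 0.108, *Fasn* at 2.65 ± 0.266 and *Ppargc1b* at 2.65 ± 0.468. These last genes lay within their spread of each other. In Piezo1cko LSCs *Dgat1* reached 159.8 ± 2.73, *Acaa2* 102 ± 0.602 and *Cpt1a* 4.97 ± 0.345, while *Acly* came down to 66.0 ± 0.623.

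The other genes of these pathways were taken from a list of 96 genes written from general knowledge, of which 85 had reads and 77 were tested. Of these, 22 were higher, 30 lower and 25 not called, against 31.6% and 31.4% of all genes. For synthesis and elongation, 4 of 18 rose (*Acss2*, *Mecr*, *Hacd3* and *Hacd4*) and 8 fell. Those that fell were *Hacd2* and *Elovl2* of elongation, *Mcat* and *Oxsm* of mitochondrial synthesis, *Mlycd*, which breaks down malonyl-CoA, and the factors *Srebf1*, *Mlxip* and *Mlxipl*. For the 15 further mitochondrial genes 2 rose and 7 fell, beside 10 and 2 of the 18 mitochondrial members. The 2 that rose were the thioesterases *Acot2* and *Acot13*. Peroxisomal genes rose in 6 of 14 cases and fell in 2, and droplet genes rose in 8 and fell in 11 of 24. The genes described next come from the 8 with the largest called changes among genes with at least 50 normalized reads on average, with *Angptl4*, *Pdk4* and *Srebf1* added. *Ucp2* is named with them and was chosen after its values were seen.

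The largest change was in *Acss2*, which makes acetyl-CoA from acetate and so is a second source of the substrate that *Acly* supplies. Normalized reads of *Acss2* were 49.5, 55.5 and 39.4 in WT and 299.8, 260.3 and 255 in Piezo1cko libraries, a level 5.65-fold that of WT (log2 fold change 0.93, SE 0.04, adjusted p = 1.47e-12). *Acot2*, a mitochondrial thioesterase that frees fatty acids from CoA, rose from 2235 ± 15.5 to 3821 ± 22.5 reads (log2 fold change 0.55, adjusted p = 9.01e-13), with the limit that it has close copies in the genome that could share its reads. *Lpl*, the lipase that releases fatty acids from lipoproteins for uptake, rose from 42.4 ± 12.7 to 140.5 ± 12.2 reads (0.50, adjusted p = 1.85e-08). *Hacd4*, a dehydratase of the elongation cycle, rose from 53.9 ± 10.4 to 151 ± 15.8 (0.46, adjusted p = 3.53e-08).

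Of the genes that fell, *G0s2*, an inhibitor of the lipase made by *Pnpla2*, had 192, 177 and 135 reads in WT and 46.0, 48.7 and 58.0 in Piezo1cko libraries (log2 fold change -0.54, SE 0.05, adjusted p = 1.59e-08). *Mogat2*, which makes diacylglycerol from monoacylglycerol, fell from 256 ± 14.3 to 112 ± 6.62 reads (-0.50, adjusted p = 2.3e-09). *Mcat*, of mitochondrial fatty acid synthesis, fell from 261 ± 23.1 to 132 ± 4.49 (-0.43, adjusted p = 3.78e-08). The groups of each of these genes were well apart. Of further known PPAR targets, *Angptl4* went from 893 ± 18.5 to 816 ± 17.1 reads (-0.08, adjusted p = 0.0279) and *Pdk4* had no reads. Another known target, *Ucp2*, went the other way, from 1120 to 1558 reads (0.32, adjusted p = 3.62e-08, limma). The PPAR targets were not tested as a group. *Srebf1*, the gene of the factor SREBP1 that activates synthesis genes, fell from 532 ± 38.9 to 350 ± 31.5 reads (-0.34, adjusted p = 1.39e-06).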

How the data were processed

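Per the labels, the authors' tools were fastp (version 0.20.1) for trimming, HISAT2 (version 2.2.1) for mapping to GRCm38, featureCounts (version 2.0.1) for counting on genes and DESeq2 (version 1.28.1) for normalization. The deposited table holds log2 values in the form of a regularized log, a transform the sources used here do not name. Genes with a mean of at least 1 (16746) were compared in R (version 4.3.3) by limma (version 3.58.1), with a variance trend and no covariate, 3 against 3, two-sided, with Benjamini-Hochberg adjustment over all of them, and called at an adjusted p under 0.05. The smallest two-sided p of an exact permutation test is 0.1 here.

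The transform was undone by fitting size factors, the strength of the pull and its weights starting at 20 points, and 6 of these runs ended at the best fit. Recovered values were within 0.1 of whole numbers in 93.69% of cases (74.08% for genes over 1000 reads, and 44.11% with the pull set 10% off), and all were rounded. limma-voom fitted 17352 genes with at least 10 reads in total. The reads carry no molecular identifiers, so intervals cover counting error only. No pair of libraries in a group agreed within counting noise (mean chi-square per gene 1.55 to 2.81). Fits and recovery were tested on simulated data. Those data were made with the same form of transform and the fitted settings, so they cannot show that the deposited values were made this way.

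Gene positions and principal transcript lengths came from GENCODE on GRCm38 and promoters from RefSeq. The members and gene lists were chosen with earlier results of these data known. Up to 4 called members per role with the largest change are given by library, and the 8 other pathway genes with the largest called change and at least 50 reads were taken, with *Angptl4*, *Pdk4* and *Srebf1*; some results are not reported here. The choice of further members given by library, of level ratios, of pathway genes outside this rule and of genes in the closing section was made with their values in view. Alternatives were other filters, scalings, a replicate block, no variance trend, recovered reads and each library left out. Python (version 3.11.15) with numpy (version 2.4.6), pandas (version 2.3.3), scipy (version 1.17.1) and matplotlib (version 3.10.9) did the rest.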

Additional observations from a re-analysis of the deposited data

How the results depend on the processing

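Of the 38 members tested, 25 kept their call and direction under every alternative run, and of 530 member results under an alternative, 492 did. Adding an absolute log2 fold change over 1 left 43 genes higher and 94 lower in the whole table and 0 members higher and 0 lower, against 2212 and 2110 genes and 0 and 1 members on recovered reads. The count of auxiliary genes called higher was 0 with no filter on low values and with no variance trend, where *Decr1* had adjusted p of 0.0508 and 0.055. The count of PPAR factors called lower was 0 with a mean of at least 5, since *Pparg* was then not tested. The deviations of same-numbered libraries correlated at 0.195, 0.161 and 0.0696, and each library correlated best with its own number. Pairs of different number ran from -0.17 to 0.0301. Whether the replicate numbers mark a pairing of the libraries was not tested, and the main fit holds no replicate term. With the replicate block 1 electron transfer gene was called lower, *Etfb* (-0.07, adjusted p = 0.0441), *Hadhb* was called higher (0.07, adjusted p = 0.0345), and no other member's call changed. With each library left out in turn, the lowest and highest counts were 1 and 2 for synthesis genes called higher, 1 and 2 for dehydrogenases called higher, 0 and 1 for auxiliary genes called higher and 0 and 1 for electron transfer genes called lower. Not every count that moved is listed: without Piezo1cko replicate 1, *Fabp5* was also called lower among the droplet genes. Setting library medians equal shifted the median of all genes by 0.0225. The sign turned only in 4 genes that were not called: *Etfa* (-0.00 without Piezo1cko replicate 1), *Pnpla2* (-0.00 without Piezo1cko replicate 2), *Ppard* (0.00 with medians set equal, 0.02 without WT replicate 1, 0.00 without Piezo1cko replicate 2) and *Ppargc1b* (0.02 with medians set equal, 0.02 with quantile normalization, from -0.06 to 0.03 with each library left out, positive without WT replicate 1 (0.02), WT replicate 2 (0.03) or Piezo1cko replicate 3 (0.01), 0.00 on reads with size factors and 0.02 with library totals). The cause of these changes was not tested. At 14112094 to 15483585 reads a library, *Acacb*, *Pparg* and *Mgll* had the fewest reads of the members with reads, so counting error weighed most on them.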

Other observations

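Steps of lipid storage are carried out by families of enzymes, and their members moved apart in several cases. All genes in this section come from the list of other pathway genes and were chosen after their values were seen. The acyltransferases that make phosphatidic acid included *Agpat2*, which fell from 423 to 269 normalized reads (log2 fold change -0.35, adjusted p = 1.77e-06, limma), and *Agpat3*, which rose from 95.9 to 198 (0.40, adjusted p = 1.43e-07). Of the lipins, which turn phosphatidic acid into diacylglycerol, *Lpin1* rose from 148 to 252 reads (0.34, adjusted p = 9.36e-07), *Lpin2* fell from 904 to 739.9 (-0.19, adjusted p = 0.000137) and *Lpin3* had 5.52 reads in WT and 0 in Piezo1cko libraries, at least 1.82-fold lower against 3 reads per library. *Gpat3*, a glycerol-3-phosphate acyltransferase, had 47.5, 43.4 and 66.4 reads in WT and 0 in every Piezo1cko library, at least 17.3-fold lower against the same floor, while its relative *Gpat4* had 2201 and 2317 reads and was not called (adjusted p = 0.0968). *Bscl2*, the gene of seipin, which helps droplets form, rose from 1474 to 2059 reads (0.33, adjusted p = 8.29e-09), and *Abhd5*, the coactivator of the lipase made by *Pnpla2*, fell from 777 to 561 (-0.29, adjusted p = 6.64e-07).

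The fatty acid receptor and transporter *Cd36* had 0, 1.01 and 0 reads in WT and 56.4, 69.2 and 52.9 in Piezo1cko libraries. Its ratio of Piezo1cko to WT level was 183, with an exact 95% interval of 32.4 to 7255 for counting error only. *Cd36* is also known from macrophages, whose markers summed to 911 to 989 reads in WT and 928 to 1053 in Piezo1cko libraries, with *C1qa* at no reads, and *C1qc* at 0 and 21.8, and their part in the *Cd36* result was not tested. *Mlxipl*, the gene of the glucose-sensing factor ChREBP, fell from 36.9, 34.3 and 51.0 to 7.31, 2.92 and 6.11 reads (-0.25, adjusted p = 1.57e-06), and *Elovl2* from 8.79 reads to 0, at least 2.89-fold lower. Of the PPAR partners, *Rxrb* rose from 617 to 826 reads (0.27, adjusted p = 7.33e-06), and *Rxra*, at 13.7 and 6.75 reads, was not called on the deposited values (adjusted p = 0.0539) but was on recovered reads (log2 fold change -1.05, adjusted p = 0.0395, limma-voom). *Ucp2*, a mitochondrial carrier and known PPAR target, rose from 1120 to 1558 reads (0.32, adjusted p = 3.62e-08).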
